A study of Mus musculus with 4 samples.

Results

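The 8 immunoglobulin heavy constant genes (Ighm, Ighd, Ighg3, Ighg1, Ighg2b, Ighg2c, Ighe and Igha) and Jchain were followed through the single-cell libraries of mouse bone marrow. They are 9 of the 31053 genes in the count matrices, taken by symbol. They were chosen with their values by genotype already known, and in particular with the knowledge that Ighg1 was seen in WT marrow, so that every value by genotype given for these genes is a description without a test. The libraries came from the femur and tibia marrow of 2 TLR9-/- (KO) and 2 WT mice, all C57BL/6, with mononuclear cells enriched on Ficoll and 1 library per mouse. TLR9 is the endosomal receptor for unmethylated CpG DNA, the KO mice carry a disrupted allele in every cell, and mice of the 2 genotypes were kept in separate cages. The age of these mice is not given in the sources used here. The mice were taken in pairs of 1 KO and 1 WT, and whether equal library numbers mark such a pair is not stated. In all, 39167 of 40545 barcodes were kept, with 8895 to 10781 cells and 31210188 to 63958243 unique molecular identifiers (UMIs, each marking 1 captured molecule) per library. The disrupted gene, Tlr9, had 41 and 48 UMIs in the KO libraries and 120 and 97 in the WT libraries. Between 118 and 203 barcodes were shared by any pair of libraries, and 4 of the 95 plasma cells described below carried a barcode that another library also held.

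A developing B cell first joins its variable segments to the constant gene Cμ (Ighm) and makes the μ heavy chain. IgD is made from the same long transcript by splicing to Ighd, mainly in cells that have left the immature stage. After activation, a B cell can undergo class switching, in which the DNA between Ighm and a downstream constant gene is removed so that the same variable exon is expressed with Ighg3, Ighg1, Ighg2b, Ighg2c, Ighe or Igha. Plasma cells secrete the antibody, and the J chain (Jchain) links IgM and dimeric IgA into polymers. Bone marrow is the site of B-cell development and a home of long-lived plasma cells.

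All 9 genes lie on the minus strand of GRCm38 (mm10). The heavy constant genes form a cluster on chromosome 12, in the order of transcription Ighm (113418558 to 113422730), Ighd (113406604 to 113416324), Ighg3 (113356224 to 113361232), Ighg1 (113325240 to 113330523), Ighg2b (113302965 to 113307933), Ighg2c (113285325 to 113288932), Ighe (113269260 to 113273248) and Igha (113254830 to 113260236). Jchain lies on chromosome 5 (88519809 to 88527891). These libraries were made from the 5′ end of the transcript. A read of a rearranged heavy chain names the isotype only where it covers a constant exon, of which the first is CH1. Ighg1, Ighg2b, Ighg2c and Ighg3 are close copies. The first 90 bases of their CH1 exons are shown as part of the sequence in which the 4 IgG genes differ. They were read from GENCODE transcripts, 5′ to 3′ on the minus strand. Capitals mark bases that differ from Ighg1.
Ighg1 CH1 (chr12:113330434-113330523): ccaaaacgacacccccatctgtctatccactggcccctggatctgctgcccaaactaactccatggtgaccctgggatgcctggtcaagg
Ighg2b CH1 (chr12:113307844-113307933): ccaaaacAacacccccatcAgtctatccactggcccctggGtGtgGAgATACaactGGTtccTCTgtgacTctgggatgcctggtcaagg
Ighg2c CH1 (chr12:113288843-113288932): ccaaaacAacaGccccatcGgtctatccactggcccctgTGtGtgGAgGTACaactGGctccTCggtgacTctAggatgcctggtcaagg
Ighg3 CH1 (chr12:113361143-113361232): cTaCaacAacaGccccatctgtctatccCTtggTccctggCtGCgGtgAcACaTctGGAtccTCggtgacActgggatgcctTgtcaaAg
Ighg2b differed from Ighg1 at 17 of these 90 bases, Ighg2c at 18 and Ighg3 at 23. Over the whole CH1 exon of 291 bases, Ighg1 was 88.3% identical to Ighg2b, 88.0% to Ighg2c and 79.0% to Ighg3. The longest run of identical bases was 37 between Ighg1 and Ighg2b and 28 between Ighg1 and Ighg2c, and none of the 202 windows of 90 bases was shared by any pair of the 4 genes. How the reads themselves were assigned was not tested, since only counts were used.

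Cells were placed in classes by marker genes that include no heavy constant gene, no Jchain and no genotype. The B stages from pro-B to mature B cells carried at least 2 of 7 B-lineage genes such as Cd79a and Ebf1, and the classes outside the B lineage carried fewer. The plasma gate set no number of these genes. It allowed at most 0.2% of a cell's UMIs from Ebf1 and at most 0.1% from Mpo, Elane and Siglech. Pro-B and large pre-B cells carried the surrogate light chain (Vpreb1, Igll1), cycling pre-B cells carried mitotic genes without it, small pre-B cells carried neither, immature B cells carried Ms4a1 and MHC class II genes without maturity genes such as Fcer2a and Cr2, mature B cells carried Ms4a1, MHC class II and at least 2 of 6 maturity genes such as Fcer2a, Cr2 and Ltb, and plasma cells carried at least 7 of 11 plasma cell genes such as Sdc1, Xbp1, Derl3 and Tnfrsf17. The KO libraries 1 and 2 and the WT libraries 1 and 2 held 34, 18, 27 and 16 plasma cells. They held 293, 678, 299 and 465 mature B cells and 777, 291, 1209 and 727 small pre-B cells. Between 27.8% and 30.6% of the cells of a library met no gate, or the gates of several other classes, and were left unassigned. These cells held 39.3% to 50.3% of the Ighd UMIs of a library, 35.9% to 37.0% of Ighm and 21.2% to 28.0% of Igha. The values by stage leave these UMIs out. Levels are given as CPM, the UMIs of a gene scaled to a common total of UMIs per class and library.

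Ighm was present at every B-lineage stage. In pro-B and large pre-B cells it had 884 and 1156 CPM in the KO libraries and 1107 and 1534 in the WT libraries. In small pre-B cells it had 3411 and 4364 CPM in KO and 3487 and 5162 in WT. By CPM every library was higher in small pre-B cells, and the rise was 1.66 on the log2 scale (SE 0.29, adjusted p = 4.65e-05, edgeR quasi-likelihood test with the library in the fit, n = 4 libraries). Per cell, Ighm was lower there in every library. It went from 4.465 and 8.809 to 3.245 and 6.357 UMIs in KO, and from 3.936 and 8.349 to 3.082 and 6.23 in WT. The median depth was 2340 to 5980 UMIs in pro-B and large pre-B cells and 825 to 1354 in small pre-B cells. From small pre-B to immature B cells, Ighm did not pass the test (log2 fold change -0.0025, SE 0.28, edgeR adjusted p = 1.00), and immature B cells had 3374 and 3455 CPM in KO and 3046 and 4675 in WT. Mature B cells had 2285 and 2266 CPM in KO and 2305 and 3541 in WT, which also did not differ from immature B cells by the test (log2 fold change -0.39, SE 0.28, edgeR adjusted p = 0.647). In plasma cells Ighm rose again by 3.18 on the log2 scale against mature B cells (SE 0.31, edgeR adjusted p = 7.72e-08). The mean CPM of the 4 libraries went from 2599 to 9454. The fitted value includes the scaling of the plasma sums given below and is larger than this ratio of CPM. By library, plasma cells had 3700.4 and 16937 CPM in KO and 11473 and 5704 in WT, and a few cells made up this level. Only 15 of the 95 plasma cells were led by Ighm.

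Ighd, the IgD constant gene, rose in CPM at each step up to the mature B cell. It had 22.7 and 34.2 CPM in pro-B and large pre-B cells of the KO libraries and 34.8 and 41.1 in those of the WT libraries. Small pre-B cells had 127 and 130 CPM in KO (129.7 in library 2) and 139 and 146 in WT, a rise of 1.90 on the log2 scale (SE 0.19, edgeR adjusted p = 4.42e-08). Immature B cells had 447 and 649 CPM in KO and 453 and 597 in WT, a further rise of 2.11 on the log2 scale (SE 0.18, edgeR adjusted p = 3.1e-08). In CPM, all 4 libraries moved the same way at both of these steps and the stages did not overlap. Per cell, the first of these steps showed no common rise. Ighd went from 0.1146 and 0.261 to 0.121 and 0.189 UMIs in KO, and from 0.1239 and 0.2235 to 0.1232 and 0.1761 in WT. Mature B cells had 479 and 998 CPM in KO and 758 and 1021 in WT. The step from immature to mature B cells was smaller and the stages overlapped (log2 fold change 0.68, SE 0.16, edgeR adjusted p = 0.0364). That call was lost without KO library 2 (0.67, adjusted p = 0.0813), without WT library 1 (0.63, adjusted p = 0.0905) and without WT library 2 (0.60, adjusted p = 0.259). In plasma cells 3 of the 4 libraries had 0 Ighd UMIs and WT library 1 had 5, a log2 fold change of -6.02 against mature B cells (SE 0.40, edgeR adjusted p = 3e-10). Of these 5 UMIs, 4 came from 1 cell led by Ighm, with 24 Ighm and 0 Jchain UMIs.

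**Figure D1:**
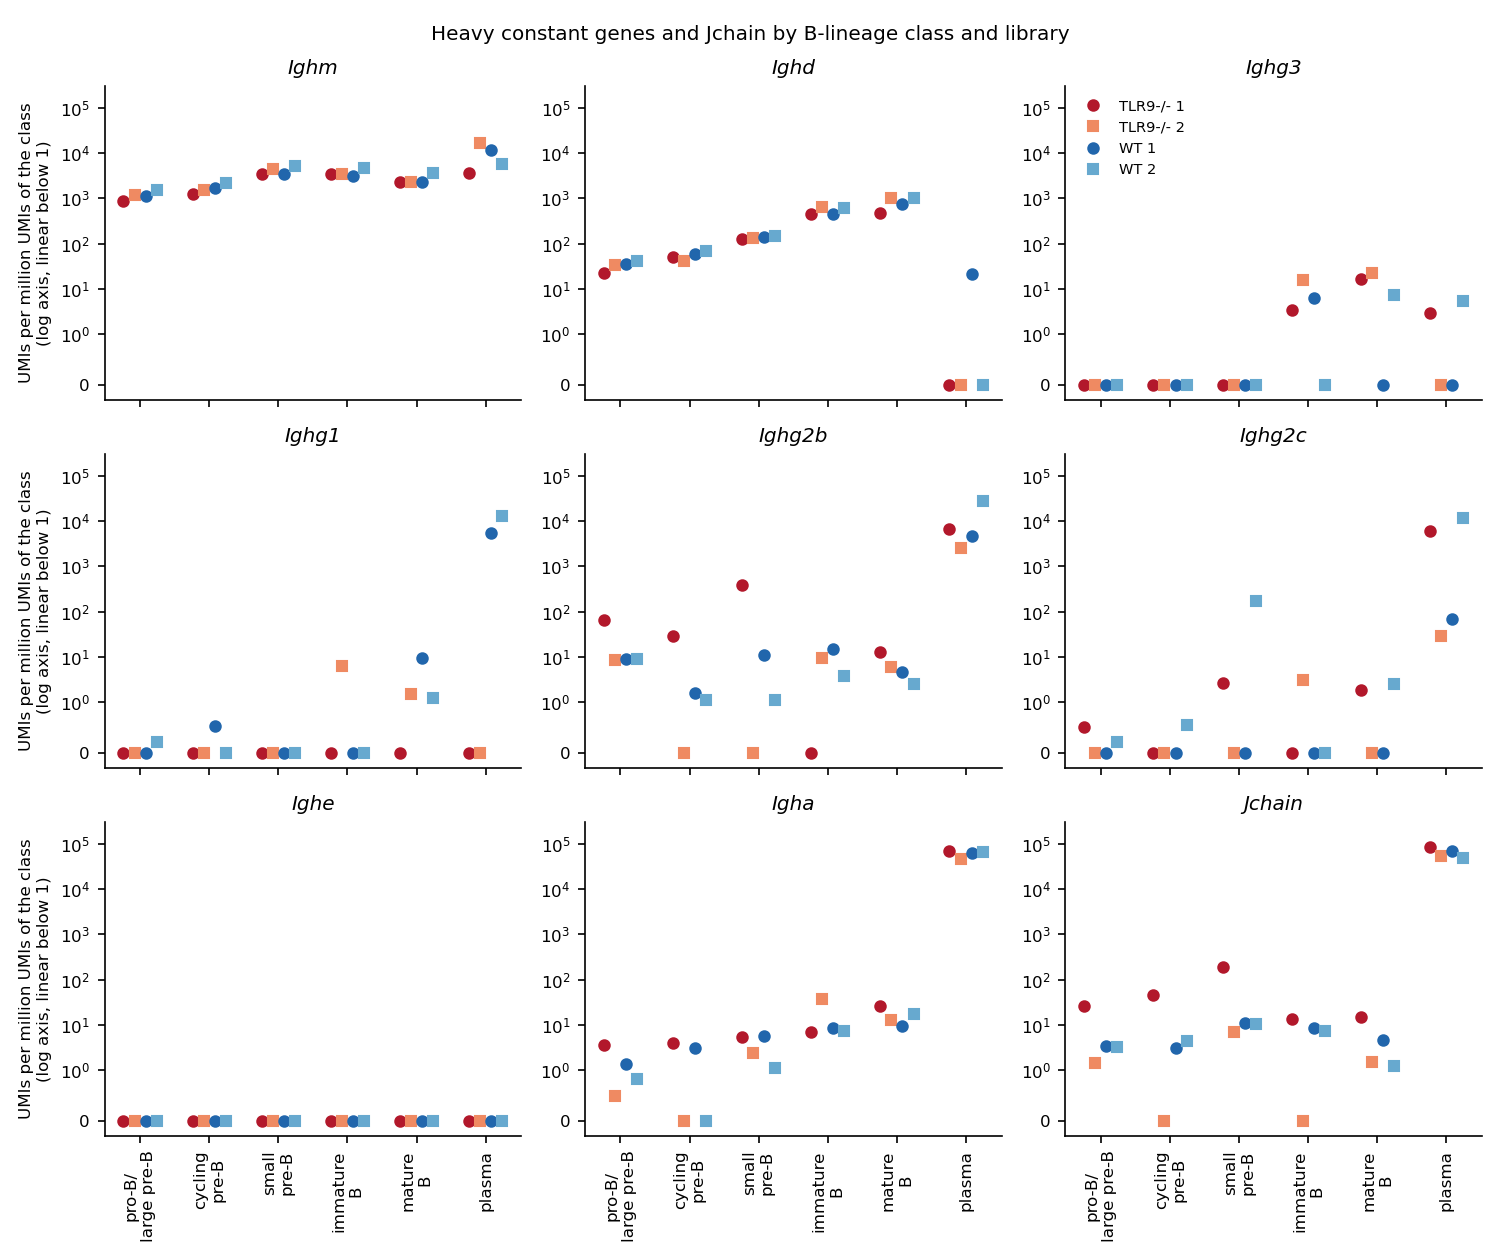
CPM (UMIs scaled to a common total per class and library; log axis, linear below 1) of the 9 genes in 6 B-lineage classes, with 1 point per library. Ighd rose from 33.2 CPM (mean of 4 libraries) in pro-B and large pre-B cells to 814 CPM in mature B cells, whereas Igha and Jchain reached 59653 and 64352 CPM in plasma cells, and Ighg1 reached plasma cells of the WT libraries only.

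The balance of the 2 genes spliced from 1 transcript, taken without reference to the library totals, rose from small pre-B to immature and to mature B cells. It did not separate the pro-B and pre-B classes. There were 2.84 ± 0.265 Ighd UMIs per 100 Ighm UMIs in pro-B and large pre-B cells (SD, n = 4 libraries), 3.32 ± 0.508 in cycling pre-B cells and 3.38 ± 0.571 in small pre-B cells. Immature B cells had 14.9 ± 2.73 and mature B cells 31.7 ± 9.61. The ranges of the 3 pre-B and pro-B classes overlapped each other, all lay under the lowest immature library (12.8), and the highest immature library (18.8) lay under the lowest mature library (20.97). By genotype, mature B cells had 20.97 and 44.1 in KO and 32.9 and 28.8 in WT, so that the KO libraries enclosed the WT libraries. After thinning each cell to 1000 UMIs, Ighd was found in 41.2% and 62.7% of the KO mature B cells and in 46% and 59.4% of the WT mature B cells, against 12.5% ± 0.962 (KO) and 13.5% ± 1.54 (WT) of small pre-B cells (SD, n = 2). Neutrophils and erythroid cells, which should lack it, held it in at most 0.253% of thinned cells in any library. Before thinning, the median depth was 1157 to 1775 UMIs in mature B cells and 1721 to 2992 in neutrophils. In small pre-B cells it was 825 to 1354 UMIs. Cells with fewer than 1000 UMIs were left out wherever cells were thinned to 1000.

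**Figure D2:**
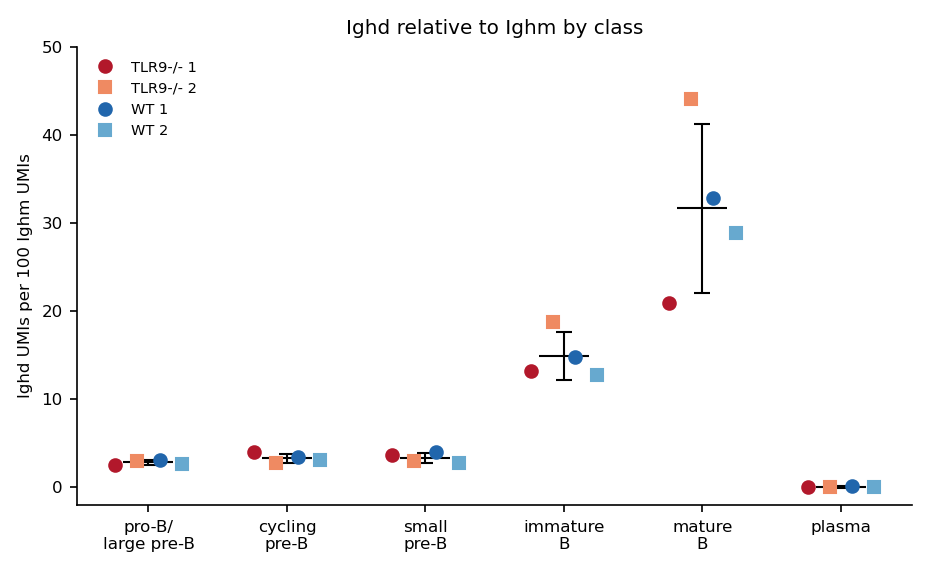
Ighd UMIs per 100 Ighm UMIs in 6 B-lineage classes, with 1 point per library and the mean ± SD of the 4 libraries as bars. The value lay near 3 through the pro-B and pre-B classes, was 14.9 in immature and 31.7 in mature B cells, and was 0.046 in plasma cells.

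Of the 9 genes, 6 passed the filter on low counts and entered the fit, and Ighg1, Ighg3 and Ighe did not. Ighg3 and Ighe were rare. Ighg1 had 1268 and 2454 UMIs in the plasma cells of the WT libraries but 0 and 0 in KO, too few libraries for the filter. Ighg2b, Ighg2c, Igha and Jchain were sparse in most sums of the B stages and passed the filter largely through the plasma sums. The counts of antibody genes called at each step are therefore a description. From pro-B and large pre-B to small pre-B cells, 4 of the 6 were higher, where 33.6% of all 6797 tested genes were higher and 30.2% lower (63.8% in either direction). Besides Ighm and Ighd these were Ighg2c and Jchain, and both rested largely on single barcodes. In small pre-B cells Ighg2c had 2, 0, 0 and 150 UMIs in KO libraries 1 and 2 and WT libraries 1 and 2, and 147 of the 150 came from 1 barcode of 974 UMIs. Without WT library 2 the log2 fold change of Ighg2c fell from 6.57 (edgeR adjusted p = 2.87e-05) to 1.70 (adjusted p = 0.206). Jchain had 140, 3, 12 and 9 UMIs there, and 125 of the 140 came from 1 barcode of 1273 UMIs that also held 286 Ighg2b UMIs and 5 plasma cell markers. With the 3 such barcodes of the B stages left out, Jchain was 1.31 higher on the log2 scale (edgeR adjusted p = 0.00996) in place of 2.11 (adjusted p = 0.00108).

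From small pre-B to immature B cells, 2 of the 6 genes were higher (Ighd and Igha) and 2 lower (Ighg2c and Jchain). The shares of all genes were 14.5% and 12.3% (26.8% in either direction). Igha, Ighg2c and Jchain had entered the fit largely through the plasma sums, so these counts are a description. The 2 that were lower were the ones carried by the barcodes named above, and neither passed the test without those barcodes (edgeR adjusted p = 0.603 for Ighg2c and 0.847 for Jchain). Igha rose from 4, 1, 6 and 1 UMIs to 2, 12, 4 and 4 UMIs, a log2 fold change of 2.10 (SE 0.56, edgeR adjusted p = 0.00759). It was 1.12 (adjusted p = 0.233) without KO library 2, which held 12 of these UMIs, and -1.58 (adjusted p = 0.443) with stricter gates. Immature B cells had 6.88, 37.1, 8.50 and 7.53 CPM of Igha, whereas neutrophils, monocytes, erythroid and T cells together had 0.865 to 4.38 CPM. Per cell, immature B cells had 0.0092, 0.0667, 0.0109 and 0.0116 Igha UMIs and neutrophils 0.0173, 0.0066, 0.0148 and 0.0061. Neutrophils were thus higher per cell in KO library 1 and WT library 1, and lower in KO library 2 and WT library 2. From immature to mature B cells, Ighd was the 1 gene of the 6 that passed the test, against 0.780% of all genes higher and 0.883% lower (1.66% in either direction).

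Against mature B cells, plasma cells had 5 of the 6 genes higher and 1 (Ighd) lower, where 13.8% of all genes were higher and 15.9% lower (29.7% in either direction). In mature B cells of KO libraries 1 and 2 and WT libraries 1 and 2, Ighg2b had 7, 8, 2 and 2 UMIs and Ighg2c 1, 0, 0 and 2. Igha had 14, 17, 4 and 14 and Jchain 8, 2, 2 and 1. These genes passed the filter on low counts largely through the plasma sums, where they were high. Their calls were thus partly set by the filter, and the count of 5 is a description. Jchain had 15.03, 1.503, 4.77 and 1.25 CPM in the mature B cells of KO libraries 1 and 2 and WT libraries 1 and 2. In plasma cells it had 86160.2, 52646, 70026 and 48576 CPM, which was 15.68 higher on the log2 scale (SE 0.79, edgeR adjusted p = 3.83e-12). Igha, the IgA constant gene, went from 26.3, 12.8, 9.53 and 17.5 CPM to 68111, 44889.5, 61385 and 64228 CPM, a log2 fold change of 13.22 (SE 0.64, edgeR adjusted p = 1.93e-12). For both genes the lowest plasma library lay far above the highest mature B library. Ighg2b had 6519, 2511, 4554 and 27151 CPM in plasma cells, in the same order of libraries. It was 12.14 higher on the log2 scale (SE 1.43, edgeR adjusted p = 1.33e-06). Ighg2c had 5990, 28.3, 67.9 and 11568 CPM there and was 13.37 higher (SE 1.11, edgeR adjusted p = 7.81e-09). No plasma cell of KO library 2 or WT library 1 was led by Ighg2c. In KO library 1 and WT library 2 its level rested on 2 cells each. The fitted values include TMM scaling, which gave plasma sums factors of 0.432 to 0.494 and mature B sums 1.10 to 1.14, and so are larger than the ratios of CPM.

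Single plasma cells were committed to 1 isotype. In 93 of the 95 plasma cells, over 90% of the heavy constant UMIs came from 1 gene, and the lowest share was 81.5%. The median plasma cell had 896 heavy constant UMIs, from 28 to 2472, or 8.29% of all its UMIs. Igha led in 63 cells, Ighm in 15, Ighg2b in 9, Ighg1 in 4 and Ighg2c in 4, and no plasma cell was led by Ighd, Ighg3 or Ighe. For a count of 0 among 52 KO and 43 WT plasma cells, the exact 95% intervals reach 6.85% and 8.22%. They pool the mice of a genotype and cover counting error only. Jchain was present irrespective of the isotype. It had at least 10 UMIs in 94 of the 95 cells, with a median of 704 and a highest value of 2091 UMIs. The remaining cell, in WT library 1, had 0 Jchain UMIs among 8912 UMIs and was also the cell with 28 heavy constant UMIs (24 Ighm and 4 Ighd). Whether it was a plasma cell was not tested. The median Jchain count was 760 UMIs in cells led by Igha (99 to 2091), 429 in cells led by Ighm (0 to 1264), 506 for Ighg1 (88 to 1173), 550 for Ighg2b (293 to 1169) and 761.5 for Ighg2c (365 to 1409). Ranges of the 5 groups overlapped, including the IgG groups, whose antibodies are not joined by the J chain.

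The isotypes of the plasma cells were then set side by side by library. Igha led in 26 of 34 and 13 of 18 plasma cells of KO libraries 1 and 2, and in 16 of 27 and 8 of 16 of WT libraries 1 and 2. As a share of heavy constant UMIs, Igha took 80.8% and 69.7% in KO and 74.1% and 52.8% in WT, or 75.3% ± 7.80 against 63.4% ± 15.1 (SD, n = 2). The KO and WT libraries overlapped on the UMI scale, while by cells both KO shares (76.5% and 72.2%) were above both WT shares (59.3% and 50%). With a plasma gate of 5 markers, the shares by cells were 56.6% and 44.8% in KO and 51.4% and 40.9% in WT and overlapped. The shares with 7 or more markers had exact 95% intervals that all overlapped each other (58.8 to 89.3, 46.5 to 90.3, 38.8 to 77.6 and 24.7 to 75.4). Ighm led in 3 and 4 cells in KO and in 6 and 2 in WT. Any IgG gene led in 5 of 34 and 1 of 18 cells in KO and in 5 of 27 and 6 of 16 in WT, with exact 95% intervals from 4.95% to 31.1%, 0.141% to 27.3%, 6.30% to 38.1% and 15.2% to 64.6%. These intervals cover counting error only.

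**Figure D3:**
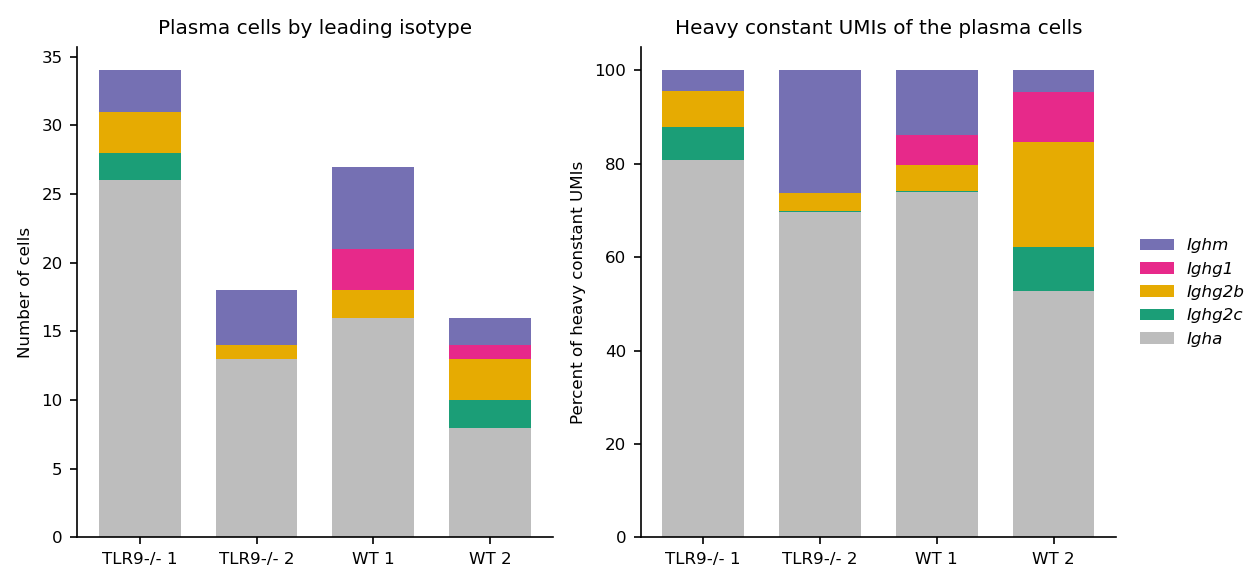
Left, number of plasma cells by leading isotype in each library; right, percent of the heavy constant UMIs of those cells. Igha led in 26, 13, 16 and 8 cells, and cells led by Ighg1 were found in the WT libraries only, 3 in library 1 and 1 in library 2.

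Summed over every cell, Ighg1 reached 1286 and 2462 UMIs in the WT libraries against 2 and 4 in the KO libraries. Nearly all of the WT signal came from 4 plasma cells. In WT library 1 they held 681, 411 and 170 Ighg1 UMIs, and in WT library 2 a single cell held 2454. Outside the cells led by Ighg1, the libraries had 2, 4, 24 and 8 Ighg1 UMIs. The 4 cells met the plasma gate on 8 to 11 of the 11 markers, had 88 to 1173 Jchain UMIs, and none had a barcode found in another library. KO libraries had 0 of 52 plasma cells led by Ighg1 (exact 95% interval 0% to 6.85%). WT libraries had 4 of 43, or 9.30% (2.59% to 22.1%), and the intervals overlap. These shares pool the cells of 2 mice per genotype and compare no mice.

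The other IgG genes also differed between mice. Ighg2c had 3151 and 15 UMIs in the KO libraries and 19 and 3907 in the WT libraries, so that it was high in 1 mouse of each genotype and nearly missing in the other. In each of the high libraries, 3 or 4 cells with at least 50 Ighg2c UMIs held 96.7% and 98.5% of it. Ighg2b had 2873 and 849 UMIs in KO and 1214 and 6883 in WT, of which 88.1% to 98.8% lay in 2 to 6 cells per library. For Ighg1, Ighg2b and Ighg2c, then, a few cells held most of a library's UMIs.

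Within the IgG cells, each named by its leading isotype, Ighg1, Ighg2b and Ighg2c were cleanly separated. No cell was led by Ighg3, so its separation could not be seen. The 4 Ighg1 cells had 3716 Ighg1 UMIs, 4 Ighg2b, 0 Ighg2c and 0 Ighg3 UMIs, and Ighg1 made up 98.3% to 99.4% of the heavy constant UMIs of each. The 9 Ighg2b cells, 4 from KO and 5 from WT, had 9008 Ighg2b UMIs, 0 Ighg1 and 11 Ighg2c UMIs. The 4 Ighg2c cells, 2 from each genotype, had 4171 Ighg2c UMIs, 0 Ighg1 and 0 Ighg2b UMIs. In the 6 IgG cells of the KO libraries, 0 UMIs were counted as Ighg1. Each of the 34 and 18 plasma cells of KO libraries 1 and 2 had over 90% of its heavy constant UMIs from 1 gene. The fewest heavy constant UMIs in a cell were 255 and 44. The KO library 2 cell with 44, all from Igha, had 14859 UMIs in all, 601 Jchain UMIs and 10 plasma cell markers. Heavy constant UMIs made up 0.296% of this cell, against a median of 6.26% in the plasma cells of that library. Whether the KO mice had sequence differences in Ighg1 itself was not tested. Whether switched IgG1 cells were lacking, or were present with reads that were not counted, was not tested either.

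**Figure D4:**
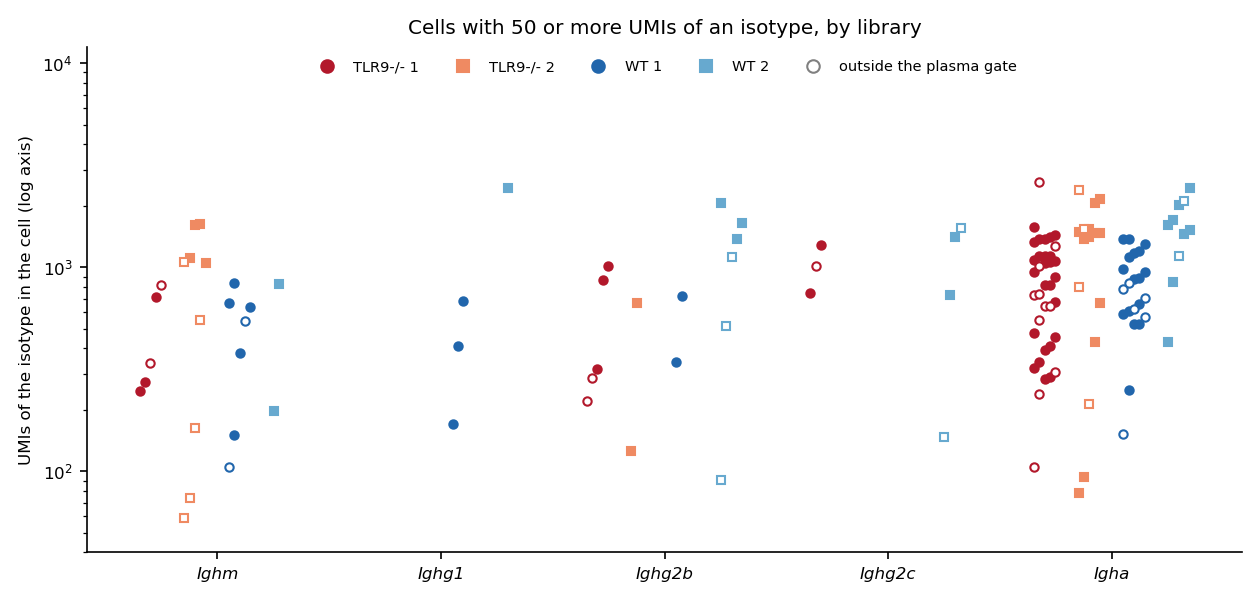
UMIs of the isotype (log axis) in every cell that held 50 or more, for 5 heavy constant genes and 4 libraries; open symbols lie outside the plasma gate. Ighg1 has 4 cells, all WT, Ighg2c has 3 cells in KO library 1 and 4 in WT library 2, and Igha has 37, 16, 22 and 10.

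The gate left out some antibody-rich cells. Of the 85 cells with at least 50 Igha UMIs, 62 met the plasma gate and 23 did not, of which 1 (KO library 2) fell in the plasmacytoid dendritic class and the rest were unassigned. All 4 Ighg1-rich cells met it. In KO library 1, 2 of 5 Ighg2b-rich barcodes fell in the pro-B or small pre-B gate, with 841 and 1273 UMIs in all. In WT library 2 an unassigned barcode with 1117 Ighg2b UMIs had 61405 UMIs in all, and no doublet caller was run.

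The number of variable segment UMIs counted per constant UMI differed between libraries. In plasma cells there were 1.17 and 1.46 Ighv UMIs per heavy constant UMI in KO and 0.952 and 0.419 in WT. In mature B cells there were 0.225 and 0.278 in KO and 0.161 and 0.0784 in WT, and for the κ light chain 4.18 and 4.32 Igkv UMIs per Igkc UMI in KO and 3.65 and 2.48 in WT. WT library 2 was lowest in each case, and both KO libraries lay above both WT libraries. For the constant gene levels by genotype, the genotype and this difference between libraries cannot be told apart.

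Ighg3 and Ighe were rare. Ighg3 had 25 and 50 UMIs in KO and 9 and 23 in WT over all cells, and at most 16 UMIs in any cell (KO library 2). In WT library 2, 14 of the 23 UMIs came from 1 cell. It was found in immature B cells (1, 5, 3 and 0 UMIs) and mature B cells (9, 30, 0 and 6 UMIs), and had 0 UMIs in pro-B, pre-B, neutrophil, monocyte, erythroid and T cells of every library. Plasma cells had 1, 0, 0 and 1 Ighg3 UMIs. Ighe had 2 UMIs in 1 cell of WT library 1 and 0 elsewhere.

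Ighg2b was also counted at a low level in pro-B and large pre-B cells. After thinning to 1000 UMIs per cell, it was found there in 7 of 706 and 3 of 268 cells of the KO libraries (0.992% and 1.12%) and in 10 of 869 and 8 of 842 cells of the WT libraries (1.15% and 0.9501%). In neutrophils it was found in 0% of the KO cells and in 0.353% and 0% of the WT cells, and in monocytes of no library. In every library the pro-B share was above the neutrophil share, but other classes reached as high a share in 1 library, with 4 of 207 immature B cells (1.93%), 1 of 105 T cells (0.952%) and 1 of 106 progenitors (0.943%) of WT library 1. The exact 95% intervals of KO library 2 (0.231% to 3.24%) and of the neutrophils of WT library 1 (0.0428% to 1.27%) show how few cells this rests on.

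Ighm was also found outside the B lineage. In plasmacytoid dendritic cells it had 742 and 956 CPM in the KO libraries and 809 and 1032 in the WT libraries, close to the level of pro-B cells. In T cells it had 152 and 238 CPM in KO and 174 and 212 in WT, and in monocytes 162 and 189 CPM in KO and 147 and 145 in WT. Neutrophils had 32.4 to 51.0 CPM and erythroid cells 5.52 to 12.4 CPM. After thinning to 1000 UMIs per cell, Ighm was found in 53.7% to 66.8% of plasmacytoid dendritic cells, in 11.6% to 16.6% of monocytes and in 0.356% to 1.08% of erythroid cells. The median depth before thinning was 1951 to 3529 UMIs in plasmacytoid dendritic cells, 3488 to 5053 in monocytes and 1829 to 4849 in erythroid cells.

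In these cells few variable segments were counted beside the constant gene. Plasmacytoid dendritic cells had 0.00193 to 0.0565 Ighv UMIs per heavy constant UMI, T cells 0 to 0.0222 and monocytes 0.01395 to 0.0231. The highest value of the plasmacytoid dendritic cells was in KO library 2, where they also held 217 Igha UMIs. Of these, 214 lay in 1 barcode, which also had 42 Jchain UMIs and 7 plasma cell markers. Neutrophils had 0.313 to 0.568, and small pre-B cells 0.0559 to 0.267. The value was lower than in neutrophils in 4 of 4 libraries for each of the 3 classes, but an exact paired permutation test over 4 libraries (two-sided) cannot go below p = 0.125, which is the value it gave for each class, also after adjustment over the 3. Igkc, the κ constant gene, which no gate used, had 1.43 to 6.31 CPM in monocytes and 7.62 to 25.4 in T cells, but 81.9 to 274 in plasmacytoid dendritic cells, against 1812 to 2476 in small pre-B cells. Cd79a had 0.807 to 5.45 CPM in monocytes, and its level is held down by the gate, which allows fewer than 2 B-lineage genes. Ighm is known to give unrearranged (germline) transcripts without a variable exon in cells that have not joined V to DJ. Whether these UMIs are such transcripts was not tested.

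**Figure D5:**
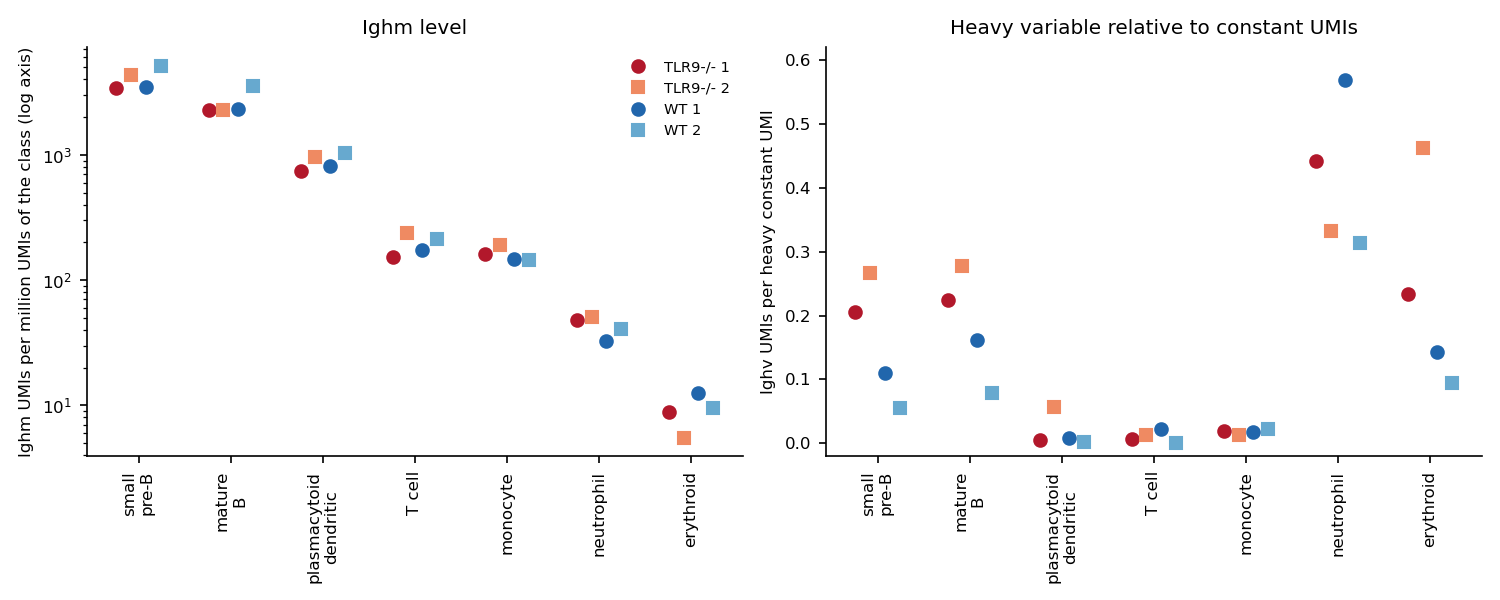
Left, Ighm CPM (log axis) in 7 classes; right, Ighv UMIs per heavy constant UMI, with 1 point per library. Plasmacytoid dendritic cells, T cells and monocytes held Ighm at 145 to 1032 CPM with at most 0.0565 Ighv UMIs per constant UMI, whereas neutrophils, with 32.4 to 51.0 CPM, had 0.313 or more.

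Genes of class switching and secretion were examined beside the antibody genes. Of a list of 78, those that mark a gate were left out of the counts by stage. From mature B to plasma cells, 8 of 9 tested genes of antibody assembly and secretion rose, none fell, and the median log2 fold change was 3.68, against a median of -0.22 over all genes. Among them Edem1, which marks misfolded glycoproteins for removal from the endoplasmic reticulum, went from 24.8 to 42.9 CPM in mature B cells to 420.2 to 608 CPM in plasma cells (log2 fold change 5.30, SE 0.18, edgeR adjusted p = 9.41e-15). Of the 11 tested receptors for switch signals, 7 fell and 1 rose, where 15.9% of all genes were lower and 13.8% higher. The interleukin-4 receptor Il4ra had 54.8 to 82.5 CPM in mature B cells and 0 to 5.33 in plasma cells (log2 fold change -3.81, SE 0.52, edgeR adjusted p = 8e-06), and Cd40, the receptor for T-cell help, had 99.99 to 137 and 0 to 5.84 CPM (log2 fold change -3.62, SE 0.40, edgeR adjusted p = 5.52e-07). Il10ra, the interleukin-10 receptor, had 78.6 to 126 and 0 to 12.7 CPM (log2 fold change -2.42, SE 0.43, edgeR adjusted p = 0.000162).

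Of the regulators of the plasma cell fate that mark no gate, 3 rose and 5 fell out of 9, beside the same 13.8% and 15.9% of all genes. The 3 with the largest changes of that group, Prdm1 (log2 fold change 8.09), Xbp1 (6.64) and Pax5 (-4.73), are gate markers, as are Derl3 (7.37), Creld2 (5.71), Tnfrsf17 (10.26) and Sdc1 (6.59), so that these values describe the gate. Of the 4 tested partners of immunoglobulin, 3 fell, with Fcmr, the receptor for the Fc part of IgM, at 689 to 846 CPM in mature B cells and 0 to 46.7 in plasma cells (log2 fold change -4.54, SE 0.43, edgeR adjusted p = 6.34e-08). Of the 13 tested genes of switch recombination and repair, none passed the test by edgeR, with 2 at an unadjusted p under 0.05.

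By genotype, none of the related genes passed edgeR's adjusted p of 0.05 in small pre-B (51 tested), immature B (45), mature B (55) or plasma cells (29), where the shares of all genes called higher and lower in TLR9-/- cells were 0.287% and 0.330%, 0.0628% and 0.0209%, 0.126% and 0.126%, and 0.209% and 0%. At an unadjusted p under 0.05 there were 2, 0, 2 and 4 of them, and DESeq2 called 0 in each class. Over all genes, edgeR had 375 of 6968, 179 of 4775, 318 of 6330 and 46 of 1436 at that unadjusted level. In the sum over all cells, where the makeup of the marrow and the level per cell cannot be told apart, edgeR called 0 of 74, with 32 at an unadjusted p under 0.05 and a lowest adjusted p of 0.077, and DESeq2 called 7 higher and 15 lower in TLR9-/- cells. In all cells 0.134% of genes were called in each direction by edgeR, and 2433 of all 14194 genes had an unadjusted p under 0.05. How many of all genes DESeq2 called was not counted, so its calls of related genes have no share beside them. This fit had no block, and taking equal library numbers as pairs changed the edgeR count of related genes, as given in the closing section.

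The genes most like each antibody gene were found by Pearson's r of log2(CPM + 10) over 56 sums (14 classes in 4 libraries), as a description. The points share libraries and depth. Ighd was most like Cd22 (r = 0.955), an inhibitory coreceptor of B cells, Tnfrsf13c (0.948), the BAFF receptor, and Srpk3 (0.945). Ighm was most like Mzb1 (0.931), a chaperone of IgM assembly, Igkc (0.913) and St6gal1 (0.898). Igha was most like Tnfrsf17 (0.977), the plasma cell receptor BCMA, Ighv1-53 (0.973) and Jchain (0.965). Jchain was most like Tnfrsf17 (0.967), Igha (0.965) and Ighg2b (0.959), and Ighg2b was most like Jchain (0.959), Tnfrsf17 (0.926) and Igha (0.915). Tnfrsf17 and Mzb1 are markers of the plasma gate.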

How the data were processed

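The authors made 5′ end 10x libraries, sequenced them as 150-base paired reads and counted them with Cell Ranger (3.0.1 per the file headers) and STAR on mm10. The deposited values are UMI counts per gene and cell, with no normalization. Cells with fewer than 200 or more than 10000 genes or over 10% mitochondrial UMIs were left out here (the methods print 0.10%, read here as a fraction of the UMIs). No doublet caller was run. Cells were gated by markers, and counts were summed per class and library. edgeR 4.0.16 (TMM, filterByExpr, quasi-likelihood test, Benjamini-Hochberg over all genes, two-sided) compared stages with the library in the fit and genotypes without a block, and DESeq2 1.42.0 was an alternative. SEs were taken from the log2 fold change and F statistic. Each library is 1 mouse. The genotype p-values rest on the spread between mice, and the stage p-values on the scatter left after differences between libraries are removed. On simulated counts with 200 changed genes, 87.5% of changes of 8-fold were recovered from mature B to plasma cells, and 95.5% of 4-fold changes between genotypes in mature B cells. Of the genes called, 3.85% and 6.83% were unchanged ones. The changed genes were drawn from those with a mean above 10 UMIs. Recovery was not simulated for sparser genes or for genotypes in other classes. The genes and lists were chosen with earlier results of these data known. Named genes were the 9 antibody genes, related genes past an adjusted p of 0.05 by genotype, the 3 per group with the largest called change from mature B to plasma cells, and the 3 most correlated genes. Of the 78 related genes, 75 symbols were found in the matrices. Shares of cells carry exact Clopper-Pearson 95% intervals, which cover counting error only.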

Additional observations from a re-analysis of the deposited data

Results flagged for a closer look

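In 28 groups of 4 libraries (9 genes by stage, where values allowed it), 8 held a library far from the other 3. The rule would flag about 1 in 20 groups of independent, normally distributed values. That rate does not hold for sparse counts or for groups that share barcodes, so the 8 are not compared with it. Ighm in mature B cells was 3541 CPM in WT library 2, against at most 2305 in the others. Igha in immature B cells was 37.1 CPM in TLR9-/- library 2, against at most 8.50. Ighg2b in plasma cells was 27151 CPM in WT library 2, against at most 6519. Ighg2b was 65.5 CPM in pro-B and large pre-B cells and 387 CPM in small pre-B cells of TLR9-/- library 1, and Jchain was 26.6 and 189 CPM there, and 2 barcodes held 507 of the Ighg2b and 211 of the Jchain UMIs. Ighg2c was 171 CPM in small pre-B cells of WT library 2, with 147 UMIs in 1 barcode.

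Jchain went in opposite directions from immature to mature B cells in the genotypes, by a mean of 1.39 CPM in TLR9-/- (1.27 and 1.503 in the libraries) and of -5.01 CPM in WT (-6.28 and -3.74). This difference was not tested, and it rests on 8 UMIs or fewer per library and stage.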

How the results depend on the processing

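Of 180 alternative log2 fold changes of the antibody genes across stages, 158 kept their direction and side of the threshold, 19 kept the direction only and 3 turned. Those 3 were, from small pre-B to immature B cells, Ighg2c without WT library 2 (0.56, with a range of -8.73 to 0.56 over the fits without 1 library), Igha with stricter gates (-1.58) and Jchain with 500 or more genes per cell (0.084). Counts of antibody genes called moved as follows. From pro-B to small pre-B cells, 1 was lower with a plasma gate of 5 markers, in place of 0, and those higher, 4 in the reported fit, ranged from 3 to 5 over the alternatives. From small pre-B to immature B cells, those higher were 1 in place of 2 with stricter gates and 1 to 2 over the fits without 1 library (1 without TLR9-/- library 2). Those lower, 2 in the reported fit, were 0 with DESeq2, with 500 or more genes per cell, with no replicate block and without the barcodes rich in switched isotypes, 1 with the gate of 5 markers, and 1 to 2 without 1 library. From immature to mature B cells, the 1 gene higher was lost (0) with DESeq2, stricter gates and no replicate block, and 0 to 1 was higher without 1 library. The gate of 5 markers and leaving out rich barcodes were chosen after seeing the data, and the cause of these changes was not tested.

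Related genes by genotype in all cells were higher in TLR9-/- for 7 with DESeq2, 2 with no filter on low counts and 7 with the replicate block, and lower for 15, 14 and 17, and 0 to 1 without 1 library; in plasma cells 1 was lower with no filter. The shares of all genes called in these alternatives were not counted. No source says that equal library numbers mark 1 experiment, so the genotype fit had no block. The correlation of same-numbered libraries' deviations was 0.0368 (plasma) to 0.323 (all cells), and the replicate block changed no other count.

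Igha's share of heavy constant UMIs was 44.3% (TLR9-/-) and 29.2% (WT) over all cells and 50.7% and 46.2% of cells with the gate of 5 markers. Ighg1's was 0.00534% and 3.02% over all cells. Ighd was found in 32.0% (TLR9-/-) and 36.2% (WT) of mature B cells thinned to 500 UMIs and in 66.2% and 65.0% without thinning. With 16 to 34 plasma cells per library, rare isotypes are limited by the number of cells.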
